A study of Homo sapiens with 6 samples.

Results

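Adhesion G protein-coupled receptors (adhesion GPCRs) were examined in UE7T-9 cells, a mesenchymal stem cell (MSC) line from human bone marrow, with and without SRRM4 knockout (KO). The members were all protein-coding genes whose symbol is ADGR followed by a subfamily letter and a number, which gave 29 of the 58735 genes counted and 29 of the 19951 protein-coding genes. The study compared 3 Control libraries, from UE7T-9 cells of wild-type genotype, with 3 SRRM4KO libraries, from UE7T-9 cells transduced with a lentiviral CRISPR vector carrying a guide RNA against SRRM4. The SRRM4KO line was 1 clone, grown after dilution to 1 cell per well. The study describes the knockout as partial, with SRRM4 protein reduced but not absent. The study states in general that its experiments were done at least 3 times. It does not say whether the 3 libraries of a group came from separate cultures, so p-values measure only the spread between these libraries. The sources used here do not state whether the Control cells carried the vector, although the study names lentivirus infection among possible influences on them, so clone, transduction and knockout cannot be told apart.

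Adhesion GPCRs join a long extracellular region, which binds matrix proteins or molecules on neighbouring cells, to a membrane-spanning receptor that signals through G proteins. Most are cut during their synthesis at a site just outside the membrane, in the GAIN domain, and the exposed stub next to the cut can act as a tethered agonist. They are known for work on synapses, myelin, blood vessels of the brain, and muscle and bone. SRRM4 is a splicing factor best known from neurons, where it promotes the inclusion of microexons, very short exons that add a few amino acids to a protein.

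The libraries held between 21496117 and 23868323 counted reads, and levels are given as CPM, counts scaled to the library size. Where a library had 0 counts of a gene, a level as high as that of 3 counts is allowed, which was 0.123 to 0.139 CPM and covers counting error only. SRRM4 itself had 0 counts in all 6 libraries, so its own level did not check the labels. Control replicate 1 stood apart in breadth, with 22403 genes detected against 20127 to 20674 in the other 5 libraries. All 6 mesenchymal markers were counted in every library, with a summed level of 28276 to 31646 CPM in Control and 12930 to 14564 CPM in SRRM4KO. That sum is mostly COL1A1, at 27881 CPM on average in Control and 11870 CPM in SRRM4KO. COL1A1, PDGFRB, THY1 and ENG fell, while NT5E rose from 342 to 490 CPM (log2 fold change 0.52) and VIM from 874 to 1122 CPM (0.36). These are RNA levels. For the proteins of NT5E (CD73) and ENG (CD105), the study reports no effect of the knockout by flow cytometry. Summed levels were 16.8 to 18.9 CPM in Control and 15.6 to 18.1 CPM in SRRM4KO for 6 myeloid markers, 22.5 to 26.3 CPM and 4.68 to 5.998 CPM for 6 endothelial markers, 0.5996 to 1.75 CPM and 0.404 to 0.575 CPM for 4 epithelial markers, and 2.58 to 6.40 CPM and 2.68 to 3.28 CPM for 6 Schwann and neural markers.

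Of the 29 adhesion GPCRs, 15 had enough counts for edgeR's quasi-likelihood test and 14 did not. A gene was called when its Benjamini-Hochberg adjusted p over all 15341 genes tested was under 0.05 and its log2 fold change (SRRM4KO over Control) was beyond 1. Higher in SRRM4KO were 4 members, ADGRL2, ADGRG6, ADGRG1 and ADGRV1, and lower were 2, ADGRD1 and ADGRA2. Of all genes tested, 12.6% were called, 5.45% higher and 7.14% lower. ADGRE5 rose and ADGRL4 fell by less than the fold change threshold, and the remaining 7 tested members did not pass the test. Among the tested members the median log2 fold change was 0.20 and the median size of change, regardless of direction, was 0.62, beside −0.01 and 0.35 for all genes tested. The groups did not overlap for 8 of the 15 members, beside 51.8% of all genes tested. These counts describe the tested members only, since a gene counted in 1 group alone can enter the test through that group.

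**Figure D1:**
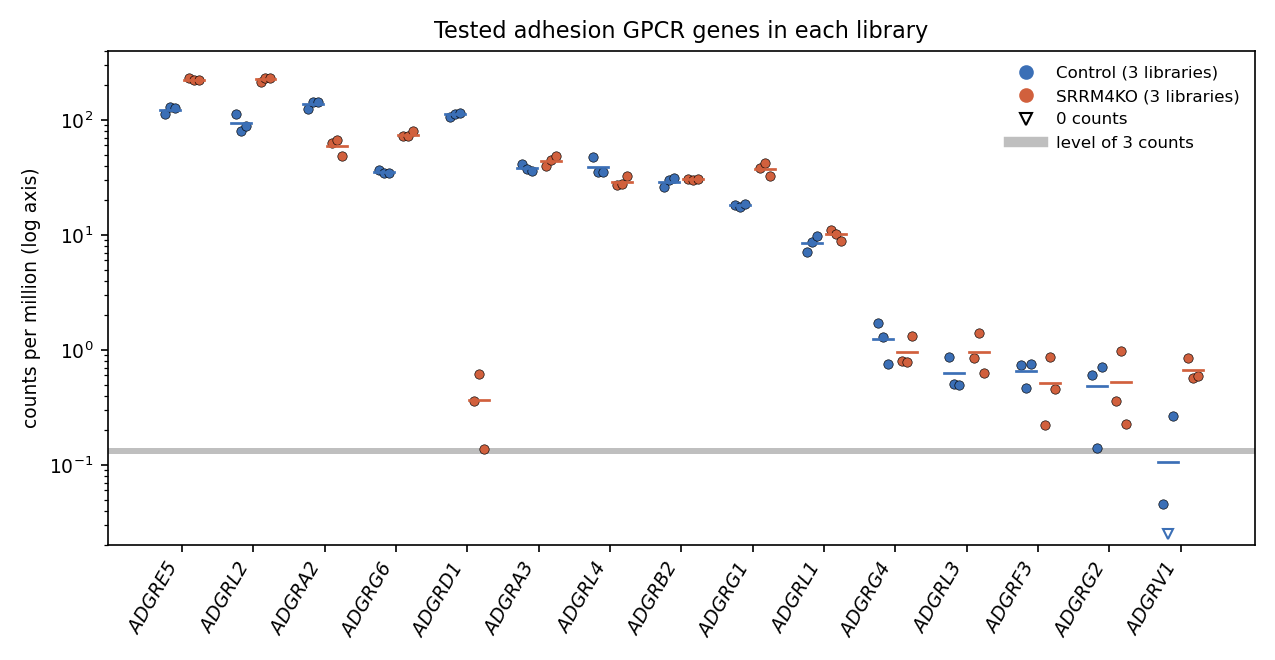
Level in CPM (log axis) of the tested adhesion GPCRs in each of the 3 Control and 3 SRRM4KO libraries, with 1 point per library, a short line at each group mean, a triangle for 0 counts and a grey line at the level of 3 counts. ADGRD1 is the member whose groups lie farthest apart, with 112 CPM on average in Control and 0.370 CPM in SRRM4KO.

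ADGRD1 (GPR133, ENSG00000111452, chr12:130953907-131141469, plus strand, GRCh38) is a receptor known to raise cyclic AMP through the stimulatory G protein. It had 2320, 2443 and 2575 counts in Control replicates 1 to 3 and 8, 15 and 3 counts in SRRM4KO replicates 1 to 3. Every SRRM4KO library was far below every Control library, and SRRM4KO replicate 3 was at the limit that a count of 0 allows. The mean level fell from 112 ± 4.37 CPM to 0.370 ± 0.240 CPM (SD, n = 3 each). The log2 fold change was −8.19 (SE 0.20, 95% interval −8.62 to −7.75, adjusted p = 5.43e-13), and it lay between −8.79 and −7.82 when each library was left out in turn. In RNA of a whole culture, fewer cells that express a gene and less RNA in each cell cannot be told apart.

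Several noncoding genes are annotated inside ADGRD1. The libraries carry no strand, so reads from exon sequence shared by overlapping genes cannot be told apart. Whether exons of these genes coincide with those of ADGRD1 was not examined. AC073862.5 had 6, 6 and 8 counts in the Control libraries and AC073862.2 had 1, 21 and 3. Both were at 0 in each SRRM4KO library, as were the other 3 overlapping genes that had any count in Control. The nearest tested protein-coding genes on either side of ADGRD1 were not called. RAN, 76.2 kb before it, encodes the nuclear transport GTPase and had a log2 fold change of 0.31 (adjusted p = 0.00397). SFSWAP, 570 kb after it, encodes a splicing regulator and had −0.17 (adjusted p = 0.199).

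The known partners of ADGRD1 were counted in both groups. PTK7, a membrane pseudokinase reported to bind the extracellular region of ADGRD1, rose from 258 to 377 CPM on average (log2 fold change 0.55, SE 0.082, adjusted p = 6.83e-05). PLXDC2, another membrane protein that binds it, was at 9.56 CPM in Control and 13.7 CPM in SRRM4KO (log2 fold change 0.52, adjusted p = 0.0182), and its adjusted p reached 0.124 when 1 library was left out.

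The latrophilins, ADGRL1 to ADGRL3, are receptors of the synapse that bind teneurins and FLRT proteins on the opposite cell. They are shown here by sequence because they hold 7 of the 9 microexons of 3 to 27 bases that GENCODE 29 annotates as coding internal exons in this family. Microexons were annotated in 5 of the 29 members, beside 8.05% of 19688 protein-coding genes with annotated coding exons. All 9 had lengths that are multiples of 3, which leave the reading frame intact. Each line gives a latrophilin microexon in capitals with 12 bases of each adjoining exon in lower case, 5′ to 3′ on the gene's strand, in GRCh38 coordinates.
ADGRL3 chr4:61730622-61730636: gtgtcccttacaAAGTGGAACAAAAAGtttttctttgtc
ADGRL1 chr19:14167016-14167030: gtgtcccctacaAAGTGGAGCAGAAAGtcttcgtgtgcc
ADGRL2 chr1:81942034-81942045: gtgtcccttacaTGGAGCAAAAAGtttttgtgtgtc
ADGRL3 chr4:62028855-62028881: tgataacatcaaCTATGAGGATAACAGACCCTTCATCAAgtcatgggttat
ADGRL2 chr1:81981124-81981150: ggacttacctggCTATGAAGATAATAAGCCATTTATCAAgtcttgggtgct
ADGRL2 chr1:81987869-81987886: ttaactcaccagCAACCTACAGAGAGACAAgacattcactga
ADGRL1 chr19:14152133-14152150: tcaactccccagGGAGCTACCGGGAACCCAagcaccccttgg

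The sequences fell into groups shared between receptors. The 15-base exons of ADGRL1 and ADGRL3 were identical at 13 of 15 positions, the 27-base exons of ADGRL2 and ADGRL3 at 21 of 27, and the 18-base exons of ADGRL1 and ADGRL2 at 10 of 18. The 15-base exon was in 14 of 15 coding transcripts of ADGRL3 but in 1 of 5 of ADGRL1, and each of the 3 microexons of ADGRL2 was in 1 of 14. The deposited values count reads per gene, so they do not measure whether a microexon was included. They give only the total level of each receptor, below. Of the 4 tested members with a microexon 1 was called, and of the 11 without one 5 were called, while over all tested protein-coding genes the shares were 12.9% with and 12.7% without.

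ADGRL2 (latrophilin 2, ENSG00000117114, chr1:81306160-81992436, plus strand) had 2439, 1738 and 1978 counts in the Control libraries and 4791, 5687 and 5119 in the SRRM4KO libraries. All SRRM4KO libraries were above all Control libraries, among which replicate 1 was the highest. Its mean level rose 2.42-fold, from 93.9 ± 16.6 CPM to 227 ± 10.4 CPM (SD, n = 3 each; log2 fold change 1.27, SE 0.11, adjusted p = 2.44e-07). ADGRL1 had 153, 187 and 219 counts in Control and 248, 250 and 196 in SRRM4KO, so its groups overlapped, and it did not pass the test (log2 fold change 0.25, 95% interval −0.12 to 0.61). ADGRL3, known for its genetic link to attention deficit, had 11 to 19 counts in Control and 14 to 34 in SRRM4KO, and its interval of −0.47 to 1.71 does not tell a rise from a fall.

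The teneurins, the long membrane proteins that latrophilins bind, moved in both directions. TENM4 fell from 269, 261 and 223 counts to 52, 113 and 83 counts (log2 fold change −1.68, adjusted p = 2.18e-05). TENM3 fell (log2 fold change −0.56, adjusted p = 0.000216) and TENM2 rose (0.74, adjusted p = 0.00159). TENM1 was at 0 throughout the Control group but had 28, 17 and 28 counts in the SRRM4KO libraries, which is at least 7.83-fold higher against 3 counts per Control library (adjusted p = 0.000137). TENM1 overlaps STAG2 on the other strand, which had 4233, 3283 and 3412 counts in the Control libraries, where TENM1 was at 0, and a log2 fold change of 0.30. Among the FLRT proteins, which join latrophilins and teneurins at the cell surface, neither FLRT2 (log2 fold change 0.01, adjusted p = 0.935) nor FLRT3 (0.33, adjusted p = 0.138) passed the test.

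ADGRL4 (ELTD1, ENSG00000162618, chr1:78889764-79006718, minus strand) belongs to the same subfamily by name but is known from endothelial cells and vessel growth. Its counts were 1033, 766 and 780 in Control and 609, 671 and 717 in SRRM4KO. The groups did not overlap, but the gap between them was small and Control replicate 1 lay far above the other Control libraries. The log2 fold change was −0.43 (SE 0.13, adjusted p = 0.0156). It was −0.28 (adjusted p = 0.0431) without Control replicate 1, and the adjusted p was 0.0669 without SRRM4KO replicate 1 and 0.0649 without SRRM4KO replicate 2. The endothelial markers TEK and KDR fell as well, while the defining markers PECAM1 and CDH5 had at most 3 counts and 1 count in any library. VWF had 18 to 46 counts and did not pass the test, and TIE1 had at most 6. The part of those markers in the ADGRL4 result was not tested.

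ADGRG6 (GPR126, ENSG00000112414, chr6:142301854-142446266, plus strand) is known for its need in Schwann cells, where it starts myelination, and for roles in cartilage and the spine. It had 793, 744 and 779 counts in Control and 1602, 1762 and 1749 in SRRM4KO, with little spread inside either group. The level rose 2.11-fold, from 35.3 ± 1.09 CPM to 74.6 ± 4.25 CPM (SD, n = 3 each; log2 fold change 1.08, SE 0.093, adjusted p = 2.61e-07). The matrix proteins that bind ADGRG6 went the other way. COL4A1, a chain of the collagen IV of basement membranes, fell from 2026 to 715 CPM (log2 fold change −1.50, adjusted p = 4.66e-10), and its partner chain COL4A2 fell by 0.98 (adjusted p = 1.72e-06). These collagen genes overlap at their annotated ends on opposite strands. LAMA2, the alpha chain of laminin-211, had a log2 fold change of −1.01 (adjusted p = 1.78e-06), which was −0.89 without Control replicate 1. PRNP, the prion protein, which also activates ADGRG6, did not pass the test (log2 fold change 0.09, adjusted p = 0.34).

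ADGRG1 (GPR56, ENSG00000205336, chr16:57610652-57665580, plus strand) signals through the G proteins that activate RhoA and is known from the developing cortex, where it binds collagen III. It had 395, 378 and 412 counts in Control and 845, 1031 and 723 in SRRM4KO. Each SRRM4KO library was above each Control library, and the SRRM4KO libraries varied more among themselves. The mean rose 2.09-fold, from 18.1 ± 0.480 CPM to 37.7 ± 4.74 CPM (SD, n = 3 each; log2 fold change 1.06, SE 0.12, adjusted p = 4.56e-06). Without SRRM4KO replicate 2 the log2 fold change was 0.96, which is under the fold change threshold. Its known ligands separated. COL3A1, the collagen III chain, fell from 5095 to 1825 CPM (log2 fold change −1.48, adjusted p = 6.57e-11). TGM2, a transglutaminase that crosslinks matrix proteins and binds ADGRG1, rose from 4.52 to 66.4 CPM (log2 fold change 3.87, adjusted p = 4.17e-11). TGM2 overlaps RPRD1B on the other strand, which had a log2 fold change of 0.48.

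The other tested members of the G subfamily, ADGRG2 and ADGRG4, were rare. ADGRG2, known from the epididymis, had 13, 3 and 16 counts in Control and 8, 24 and 5 in SRRM4KO. ADGRG4 had 37, 28 and 17 in Control and 18, 19 and 29 in SRRM4KO. Their groups overlapped, and neither passed the test (log2 fold changes 0.12 and −0.37).

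ADGRE5 (CD97, ENSG00000123146, chr19:14380501-14408725, plus strand) is an adhesion receptor of leukocytes and many other cells that binds CD55 and THY1. It had 2425, 2801 and 2820 counts in Control and 5143, 5382 and 4870 in SRRM4KO, and no SRRM4KO library came near the Control range. The level rose 1.83-fold, from 122.7 ± 9.58 CPM to 224 ± 5.61 CPM (SD, n = 3 each), and the log2 fold change was 0.87 (SE 0.084, 95% interval 0.69 to 1.05, adjusted p = 7.72e-07). RNA of THY1, which encodes the CD90 surface protein of mesenchymal cells, fell from 144 to 26.7 CPM (log2 fold change −2.43, adjusted p = 3.63e-10). By flow cytometry the study found little CD90 protein, and it describes CD90 as lacking in Control cells. CD55, which shields cells from complement, was at 98.3 CPM in Control and rose to 126 CPM in SRRM4KO (log2 fold change 0.36, adjusted p = 0.0063). Of the 6 myeloid markers, CD14 had 324 to 392 counts and CSF1R 11 to 26 counts per library, with groups that overlapped. ITGAM had 5 to 14 counts in Control and 0 in SRRM4KO, TYROBP and PTPRC had at most 4 and 2 counts in any library, and SPI1 had 0. CD33, which the study names as a myeloid marker and reports as increased in SRRM4KO cells, was not in this list. The part of these markers in the ADGRE5 result was not tested. DDX39A, an RNA helicase gene that lies 0.094 kb from ADGRE5, had a log2 fold change of 0.83 (adjusted p = 1.60e-05) and was not called. Of the 12 nearest tested neighbours of called members 1 was called, with 0 in the direction of its member. Among 18 neighbours of members not called, 4 were called, beside 12.6% of all genes tested.

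ADGRA2 (GPR124, ENSG00000020181, chr8:37784191-37844896, plus strand) is known from the brain vasculature, where it acts with RECK as a co-receptor for WNT7 ligands. It had 2692, 3081 and 3190 counts in Control and 1400, 1636 and 1078 in SRRM4KO. All SRRM4KO libraries were below all Control libraries. The mean level fell 2.29-fold, from 137 ± 10.8 CPM to 59.7 ± 9.50 CPM (SD, n = 3 each; log2 fold change −1.20, SE 0.11, adjusted p = 6.87e-07). ADGRA2 overlaps BRF2, which had a log2 fold change of 0.19 and did not pass the test. RECK, a membrane-anchored protein that recognises WNT7, fell from 96.9 to 58.1 CPM (log2 fold change −0.74, adjusted p = 2.71e-05). Of its WNT ligands, WNT7A had 0 counts in every library and WNT7B had 3 counts in Control replicate 2 and 0 elsewhere. ADGRA3, the other tested member of this subfamily, had 895, 815 and 806 counts in Control and 881, 1083 and 1067 in SRRM4KO, and its difference did not pass the test (log2 fold change 0.20, 95% interval −0.03 to 0.43).

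**Figure D2:**
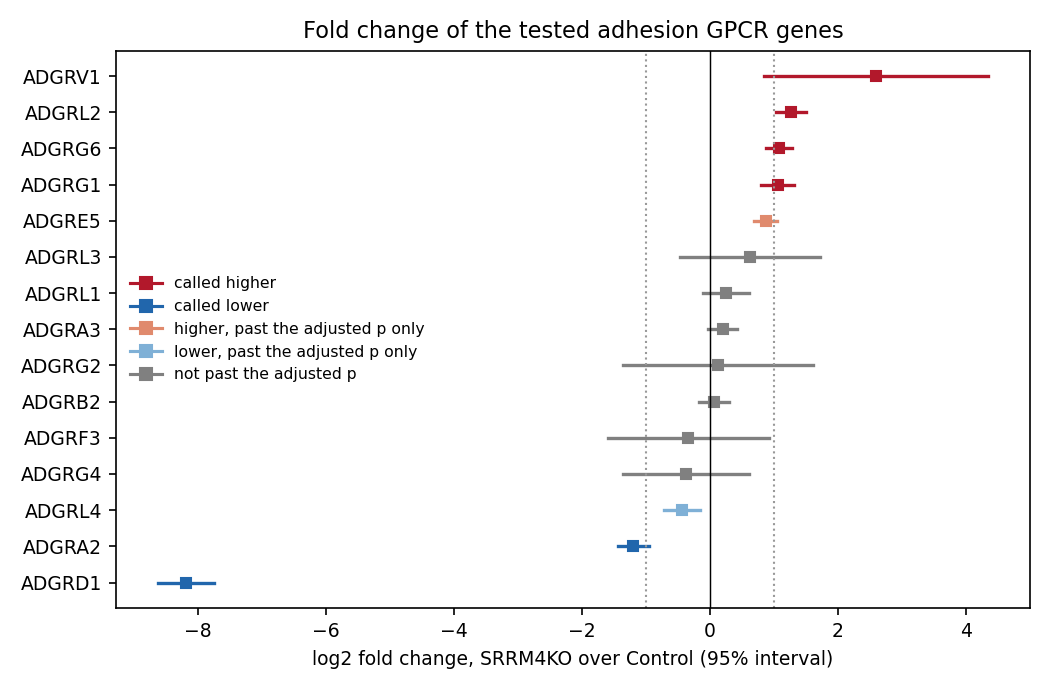
Log2 fold change (SRRM4KO over Control) of each tested adhesion GPCR with its 95% interval from the edgeR fit, 3 libraries per group, with dotted lines at −1 and 1, the threshold of a call. The interval of ADGRD1 lies at −8.62 to −7.75, apart from all other members, while those of the rarely counted ADGRG2, ADGRF3, ADGRL3 and ADGRG4 cross 0.

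ADGRV1 (ENSG00000164199, chr5:90529344-91164437, plus strand), a very large receptor of the ear and retina whose loss causes Usher syndrome, was called on few reads. It had 1, 0 and 6 counts in Control and 19, 14 and 13 in SRRM4KO. The log2 fold change was 2.60 with a wide 95% interval of 0.85 to 4.35 (adjusted p = 0.0189). The adjusted p was 0.0671 without Control replicate 1, 0.0790 without Control replicate 2 and 0.0771 without SRRM4KO replicate 1, and without Control replicate 3 the log2 fold change was 4.56. ADGRV1 overlaps LUCAT1, a noncoding RNA on the other strand, which rose from 4, 11 and 8 counts to 56, 79 and 34 counts (log2 fold change 2.78, adjusted p = 0.000331). It also overlaps LYSMD3 on the other strand, which had 1383, 1160 and 1252 counts in Control and 1399, 1411 and 1523 in SRRM4KO. LYSMD3 did not pass the test (log2 fold change 0.13, adjusted p = 0.341). Since these libraries carry no strand, reads from exon sequence that ADGRV1 shares with either gene cannot be told apart. Whether any of their exons coincide was not examined.

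ADGRB2 (BAI2), a brain receptor of a subfamily first described for limiting vessel growth, had 561, 644 and 697 counts in Control and 683, 727 and 674 in SRRM4KO. Its groups overlapped and its log2 fold change was 0.07 (95% interval −0.17 to 0.30). ADGRF3 had 16, 10 and 17 counts in Control and 5, 21 and 10 in SRRM4KO and did not pass the test (log2 fold change −0.34, adjusted p = 0.687).

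The 14 members that were not tested had at most 16 counts in any library. ADGRD2, ADGRA1, ADGRE3, ADGRG3 and ADGRG7 had 0 counts in all 6 libraries. ADGRF5, known from lung surfactant balance, had 1, 0 and 2 counts in Control and 14, 1 and 16 in SRRM4KO, so that SRRM4KO replicate 2 lay inside the Control range. ADGRE1, in humans a receptor of eosinophils, had 12, 10 and 7 counts in Control and 1, 6 and 5 in SRRM4KO, without overlap. ADGRF4 reached 15 counts in 1 Control library and ADGRE2 reached 6. ADGRF2, ADGRG5, ADGRF1, ADGRB1 and ADGRB3 had highest counts of 5, 3, 2, 2 and 1.

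Levels of different receptors were compared only per length, as TPM, in which counts are divided by the gene lengths in the table and scaled to the same total in each library. In Control cells the order was ADGRE5 at 103 ± 5.20 TPM, ADGRA2 at 87.3 ± 4.46, ADGRL2 at 54.9 ± 11.4, ADGRL4 at 48.5 ± 10.4 and ADGRD1 at 34.3 ± 0.433 (SD, n = 3). Of these neighbours, the libraries of ADGRL2 and ADGRL4 overlapped and the others did not. Next came ADGRG6 at 18.8 ± 1.15 TPM, ADGRA3 at 18.8 ± 1.84 and ADGRB2 at 16.9 ± 1.17, each overlapping its neighbour in the order, then ADGRG1 at 9.43 ± 0.420 TPM. In SRRM4KO cells ADGRE5 was again first, at 188 ± 4.34 TPM, and ADGRL2 was second, at 132 ± 6.76 TPM. Then came ADGRG6 at 39.7 ± 2.73 TPM, ADGRA2 at 38.1 ± 5.67 and ADGRL4 at 35.8 ± 4.08, whose libraries overlapped from one to the next. ADGRD1 dropped from the fifth place to rank 17, at 0.113 ± 0.0726 TPM.

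The family as a whole rose from 399 ± 14.5 TPM to 501 ± 6.90 TPM, with rises of ADGRE5 and ADGRL2 that exceeded the losses of ADGRA2, ADGRL4 and ADGRD1. The share of ADGRE5 in the summed family level was 25.8% in Control and 37.6% in SRRM4KO, and that of ADGRL2 was 13.7% and 26.4%. ADGRA2 held 21.9% and 7.61%, ADGRL4 12.1% and 7.15%, ADGRD1 8.61% and 0.0226%, and ADGRG6 4.72% and 7.93%. These sums are a description without a test.

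**Figure D3:**
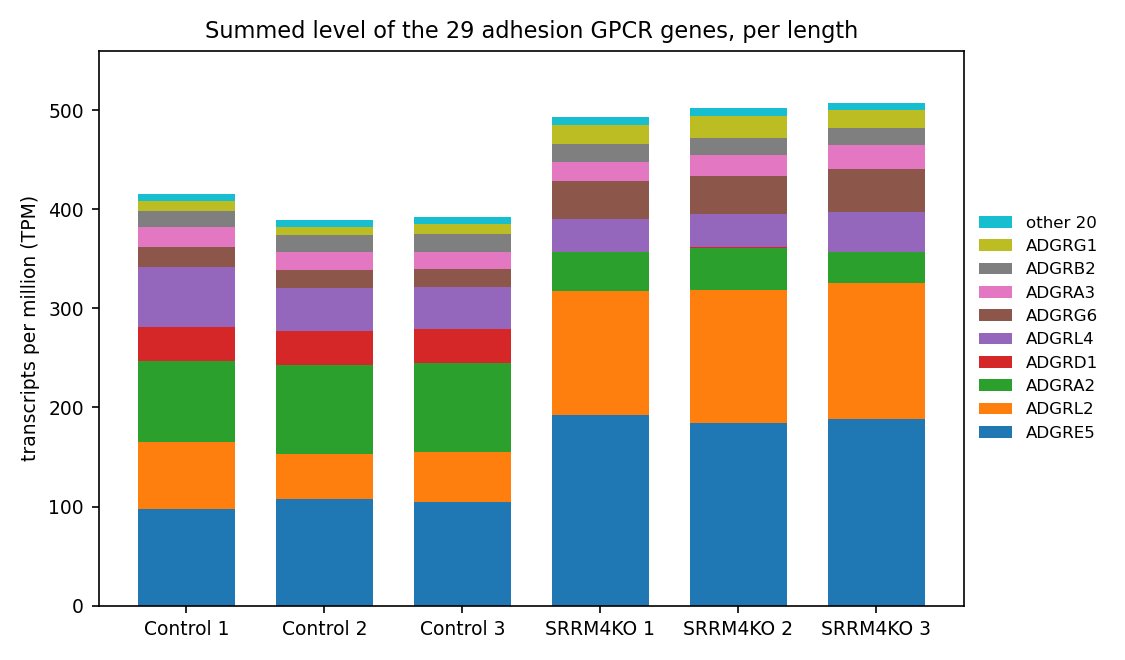
Summed level of the adhesion GPCR family in each library, in TPM, divided among its members by colour. The SRRM4KO bars are taller, and ADGRE5 and ADGRL2 take up most of the added height while the ADGRD1 segment is not visible.

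The adhesion GPCR subfamily C, the CELSR proteins of planar cell polarity, carries another symbol and was read beside the members. CELSR1 fell from 133 to 95.5 CPM (log2 fold change −0.48, adjusted p = 0.000428) and CELSR3 rose from 30.7 to 45.2 CPM (0.56, adjusted p = 0.00478). CELSR2, at 18.2 and 22.4 CPM, did not pass the test (0.29, adjusted p = 0.0713), and none of the 3 was called.

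Known binding partners of adhesion GPCRs were taken as a list of 28 genes, of which 21 were tested. Higher were 3 (TGM2, TENM1 and C1QL1) and lower were 5 (COL3A1, COL4A1, LAMA2, THY1 and TENM4), so 38.1% of those tested were called, beside 12.6% of all genes. The list was chosen with earlier results of these data known, so its share is a description without a test. A further 4 rose and 4 fell below the fold change threshold, and 5 did not pass the test. The median log2 fold change of the list was 0.01. C1QL1, a secreted C1q-like protein that binds receptors of the ADGRB subfamily, rose from 8.49 to 19.6 CPM (log2 fold change 1.21, adjusted p = 6.14e-06). RTN4R, the Nogo receptor, which also binds that subfamily, fell from 5.30 to 2.81 CPM (log2 fold change −0.92, adjusted p = 0.0142). Among the partners called, the secreted matrix chains COL3A1, COL4A1 and LAMA2 fell, and the enzyme TGM2 rose.

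**Figure D4:**
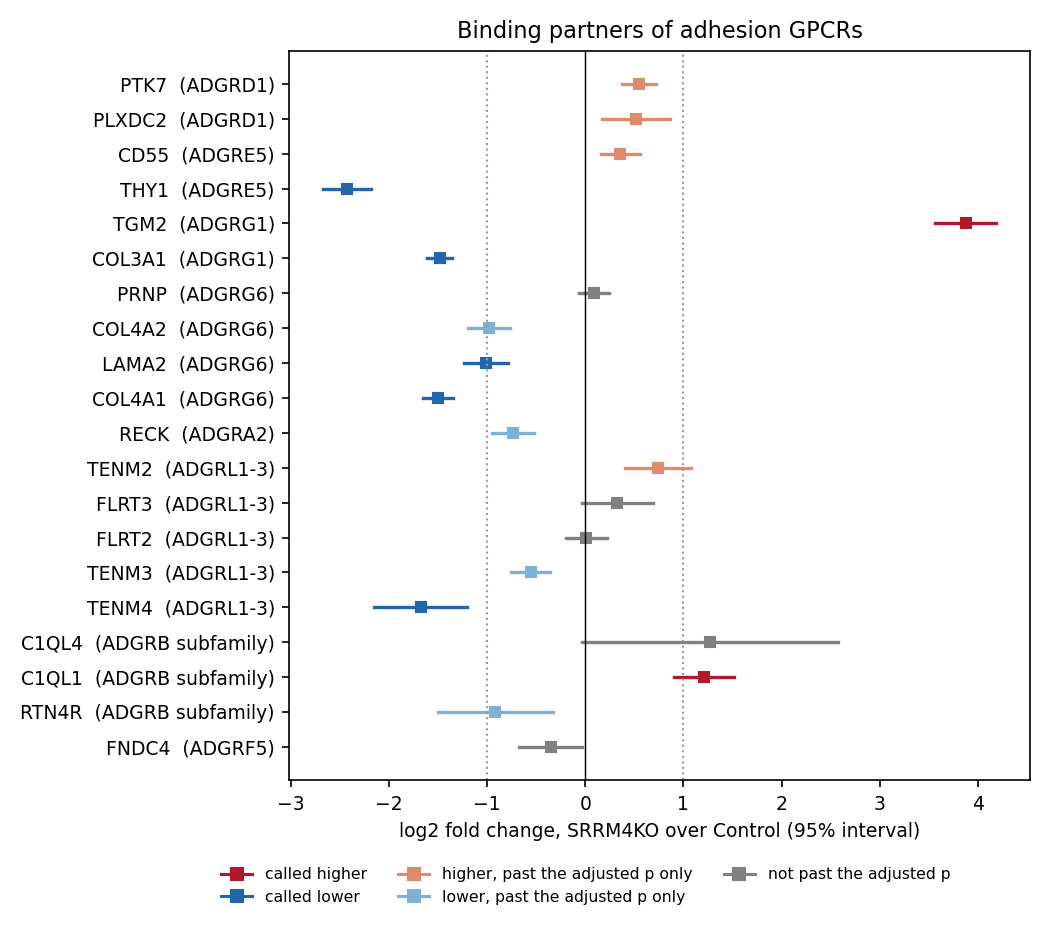
Log2 fold change (SRRM4KO over Control) of the tested binding partners with 95% intervals, grouped by the receptor they bind and coloured by whether they were called. TENM1, at 0 in Control, is left out. The partners lie on both sides of 0, with TGM2 at 3.87 and THY1 at −2.43.

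Downstream of the receptors, a list of 30 genes for G protein alpha subunits, adenylyl cyclases, RhoGEFs, arrestins and the ELMO-DOCK module was read, of which 22 were tested. None was called higher and 2 were called lower by edgeR, 9.09% of those tested beside 12.6% of all genes. At an unadjusted p under 0.05 there were 3 genes higher, 0 of them beyond a log2 fold change of 1, and DESeq2 called 2 higher. The 0 depended on the filter on low counts, which kept out ADCY2 and ADCY8. With no filter edgeR called both higher, and at least 1 of them was tested and called in 5 of the 6 fits that left out 1 library, where the filter let more genes in. The genes called in either direction were adenylyl cyclases, the enzymes that make cyclic AMP. The cyclases called higher there were too rare for the main test, namely ADCY2 (Control 1, 2 and 1 counts, SRRM4KO 17, 13 and 7) and ADCY8 (Control 1, 0 and 0 counts, SRRM4KO 17, 0 and 12). ADCY4 fell from 62, 91 and 57 counts in Control to 22, 12 and 13 in SRRM4KO (log2 fold change −2.21, adjusted p = 0.000307). ADCY5 fell from 42, 54 and 32 counts to 3, 15 and 7 (log2 fold change −2.42, adjusted p = 0.0019). The cyclases with the highest levels per length were not called. ADCY9 was at 52.8 TPM in Control and 40.6 TPM in SRRM4KO, ADCY6 at 42.4 and 41.2, and ADCY3 at 25.9 and 26.2. By comparison, ADCY4 and ADCY5 were at 1.79 and 0.997 TPM in Control. GNAS, the stimulatory alpha subunit through which ADGRD1 and ADGRG6 signal, did not pass the test (log2 fold change 0.06, adjusted p = 0.47). GNA13, GNAI3 and ARRB2 rose and GNAQ, GNAI1, ADCY9, ARHGEF12 and DOCK1 fell below the fold change threshold.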

How the data were processed

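Total RNA of UE7T-9 Control and SRRM4KO cells (3 libraries each) was read by mRNA-seq without strand. As deposited by the authors, the table holds raw gene counts with gene lengths, without normalization. Their processing notes name HISAT2 2.0.5, featureCounts 1.5.0-p3 and DESeq2, and the genome build is not given in the sources used here. All gene IDs were found in GENCODE 29 (GRCh38), 58724 of 58735 with the same start and end, members included. How reads shared by similar genes were counted is not given.

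Groups were taken from the titles and genotypes. Counts were tested with edgeR 4.0.16 in R 4.3.3 (TMM, filterByExpr, prior count 0.125, quasi-likelihood test, Benjamini-Hochberg over 15341 genes). SE was the size of the log2 fold change over the root of F. CPM used TMM-scaled library sizes. The same code was tested on simulated counts. Microexon sequences were read from GENCODE 29 transcripts.

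The members and lists were chosen with earlier results of these data known. All tested members, the CELSR genes, partners of called members, and called genes of the lists were named, and CD55, RTN4R, TENM2, TENM3, FLRT2, FLRT3, DDX39A and the signalling genes not called were added after their values were seen. Alternatives were DESeq2 size factors, other filters, DESeq2 1.42.0, a replicate block, each library left out, and other fold change thresholds.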

Additional observations from a re-analysis of the deposited data

How the results depend on the processing

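Of the adhesion GPCRs, 4 were called higher and 2 lower with DESeq2 size factors. Testing against the fold change threshold itself left 1 higher (ADGRL2) and 1 lower (ADGRD1). Requiring at least 10 counts in every library left 1 lower, since ADGRD1 was then not tested. Without the fold change threshold, partners numbered 7 higher and 9 lower, signalling genes 3 higher and 7 lower, and all genes 3171 higher and 3213 lower. With the threshold test, all genes numbered 360 higher and 577 lower. Signalling genes called higher were 2 with no filter and 2 with DESeq2 (ADCY2 and ADCY8), and 1 was called lower with at least 10 counts in every library. With each library left out, members called were 3 to 4 higher and 2 lower, partners 3 higher and 5 to 7 lower, signalling genes 0 to 2 higher and 2 lower, and all genes 791 to 875 higher and 1029 to 1162 lower. Log2 fold changes crossed 0 for ADGRB2 (−0.010 to 0.12), ADGRF3 (−0.94 to 0.0083), ADGRG2 (−0.72 to 0.51) and FLRT2 (−0.067 to 0.11, and −0.0051 with at least 10 counts in every library), and the cause was not tested. ADGRF5 was called higher with no filter and also without SRRM4KO replicate 2, where ADGRG1 was not called. ADGRF5 was not tested in the analysis reported.

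Same-numbered Control and SRRM4KO libraries did not deviate together (correlations −0.11, 0.13 and −0.14), which gave no sign that the numbers pair the samples. With 3 libraries per group, such correlations cannot exclude a pairing. With the replicate number as a block, 842 genes were called higher and 1093 lower, and the members called were again 4 higher and 2 lower.

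Depth limits the members with few counts. The 95% interval spans −0.47 to 1.71 on the log2 scale for ADGRL3 and −1.36 to 0.61 for ADGRG4. The calls of ADGRV1 and ADGRG1 each depended on single libraries, as given beside their values.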
